A study of Mus musculus with 2 samples.

Results

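The pentose phosphate pathway genes G6pdx, Pgls, Pgd, Rpia, Rpe, Tkt, Taldo1, Prps1, Prps2 and H6pd were examined in regenerating mouse liver. They were chosen by name, as the enzymes of the pathway, of the step that follows it and of its counterpart in the endoplasmic reticulum. All 10 were found among the 33224 gene symbols of the deposited table, and all 10 were among the 11723 symbols whose mean FPKM was at least 1. FPKM is the number of fragments on each kilobase of exon, relative to the mapped fragments of the library, so levels of different genes can be set side by side.

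Hepatic RNA came from male C57BL/6 mice after partial hepatectomy (PH), a surgery that removes most of the liver and sets the remaining cells to regrow. The wild-type (WT) group and the PPARβ-null (KO) group, which lacks the nuclear receptor encoded by Ppard, were each sequenced as 1 library. The labels give both an age of 4 months, whereas the design text gives 3 months and the growth protocol 3 to 5 months, and the study's text puts the collection at 48 hr after PH. Whether a library came from 1 mouse or from several, and which exons the null allele lacks, was not given in the sources used here. The study asked whether PPARβ plays a part in liver regeneration, and RNA was sequenced to look at the basis of cell proliferation without it. With 1 library of each genotype no test across mice could be made, so every ratio describes these 2 libraries only. Ppard itself (chromosome 17), the targeted gene, was at 2.67 FPKM in WT against 2.42 in KO, 1.10-fold apart (95% counting interval 0.966 to 1.26), so the level of the whole locus does not check the genotype labels.

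The pathway branches from glycolysis at glucose 6-phosphate. Its oxidative arm makes NADPH, the reducing agent for fatty acid and cholesterol synthesis and for glutathione, and ends in ribulose 5-phosphate. Its non-oxidative arm exchanges sugar phosphates with glycolysis in both directions, and its ribose 5-phosphate is activated to PRPP, the sugar donor of purine, pyrimidine and NAD synthesis, on which dividing cells depend.

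Sequences before the RefSeq start are shown for members that differed in how far KO lay below WT. They belong to Pgd, Tkt, Prps2 and Rpia, the 4 with the lowest KO/WT ratios, and to Prps1, the paralogue of Prps2. They are the RefSeq promoter sequences (GRCm38.p6), read 5′ to 3′ on the strand of the gene. Each starts 250 bases before the RefSeq start and stops where an exon of the gene begins in GENCODE vM1 or, for Prps1 and Prps2, at the RefSeq start. The stretch of Tkt lies inside the gene as GENCODE vM1 draws it. The stretches are chr4:149166772-149166955 (minus strand) for Pgd, chr14:30548881-30549001 (plus strand) for Tkt, chrX:167382750-167382999 (minus strand) for Prps2, chr6:70792233-70792425 (minus strand) for Rpia and chrX:140456353-140456602 (plus strand) for Prps1. Capitals mark a GC box (GGGCGG), the nuclear receptor half-site AGGTCA or the NF-Y box CCAAT, on either strand.
Pgd: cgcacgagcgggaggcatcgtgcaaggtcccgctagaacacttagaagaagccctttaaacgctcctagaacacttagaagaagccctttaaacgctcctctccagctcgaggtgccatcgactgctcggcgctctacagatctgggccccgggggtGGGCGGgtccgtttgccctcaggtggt
Tkt: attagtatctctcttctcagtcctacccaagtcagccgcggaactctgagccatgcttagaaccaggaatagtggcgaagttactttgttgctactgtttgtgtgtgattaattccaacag
Prps2: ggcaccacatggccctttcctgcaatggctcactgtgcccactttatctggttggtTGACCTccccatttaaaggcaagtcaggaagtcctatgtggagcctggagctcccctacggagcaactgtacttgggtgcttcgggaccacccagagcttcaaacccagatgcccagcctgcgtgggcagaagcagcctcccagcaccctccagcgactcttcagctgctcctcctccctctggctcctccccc
Rpia: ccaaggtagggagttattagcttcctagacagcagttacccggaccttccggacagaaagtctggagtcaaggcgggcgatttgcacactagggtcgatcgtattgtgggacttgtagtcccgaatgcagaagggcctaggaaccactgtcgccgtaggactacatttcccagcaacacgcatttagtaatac
Prps1: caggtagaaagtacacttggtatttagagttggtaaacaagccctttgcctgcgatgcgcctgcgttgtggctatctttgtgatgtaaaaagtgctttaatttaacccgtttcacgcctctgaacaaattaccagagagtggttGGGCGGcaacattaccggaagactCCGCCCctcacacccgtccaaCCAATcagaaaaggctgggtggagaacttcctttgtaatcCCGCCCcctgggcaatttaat

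Motifs were searched on both strands of the whole 250-base windows of the 10 members, all of which were found with the same letters in NCBIM37. The GC box was in the windows of 8 members, all but Prps2 and H6pd, and in 32.7% of the 32851 windows of the RefSeq table. Prps1 held it at 3 places and Prps2 at none, and the GC boxes of Tkt and Rpia lie outside the printed stretches. G and C made up 48.4% (Prps1) to 64.4% (Pgls) of these 8 windows, against a median of 52.4% over all windows. The share of all windows was not matched for this. CCAAT was in the windows of Pgd, Taldo1, Prps1 and H6pd and in 33.8% of all windows. Pgd held it at 2 places, 46 to 42 and 9 to 5 bases before the start, inside the stretch that is not printed. AGGTCA, the half-site to which PPAR and other nuclear receptors bind, was in the windows of Prps2 and H6pd and in 14% of all. TGACNNNGC, the core of the antioxidant response element that Nrf2 binds, was in the window of G6pdx alone, 57 to 49 bases before its start, and in 10.2% of all windows. The E-box CACGTG (6.02% of all windows) and the E2F letters TTTGGCGC (0.417%) and TTTCCCGC (0.895%) were in none of the 10 windows. The shared letters did not separate the members with the lowest KO/WT ratios from the others: the GC box was in 3 of those 4 windows and in 5 of the other 6. The windows hang on the RefSeq start. That of H6pd lies 5787 bases inside the gene as GENCODE vM1 draws it, that of Tkt 772 bases and that of G6pdx 314 bases, and a match describes letters, not binding.

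A level that was more than 1.5-fold apart between the libraries was counted as lower or higher. By this rule 4 of the 10 members were lower in KO, Pgd, Tkt, Prps2 and Rpia, against 19.9% of all genes whose mean FPKM was at least 1. None was higher, against 4.2% of all genes. Above 2-fold, 3 members were lower in KO, Pgd, Tkt and Prps2, against 8.69% of all genes. The median log2 KO/WT of the members, with 0.1 FPKM added to each value, was -0.38, and that of all genes was -0.24. The background is thus itself shifted towards lower values in KO, with 75.6% of all genes lower by any amount. After every KO value was raised by this shift, a WT/KO ratio of 1.18, Pgd, Tkt and Prps2 remained lower by more than 1.5-fold, with ratios of 2.58, 1.95 and 1.92, against 12.1% of all genes. Rpia, at 1.39, did not. At any fold, 9 of the 10 members were lower in KO and 1, H6pd, was higher, and Rpe turned to higher once the shift was taken out.

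**Figure D1:**
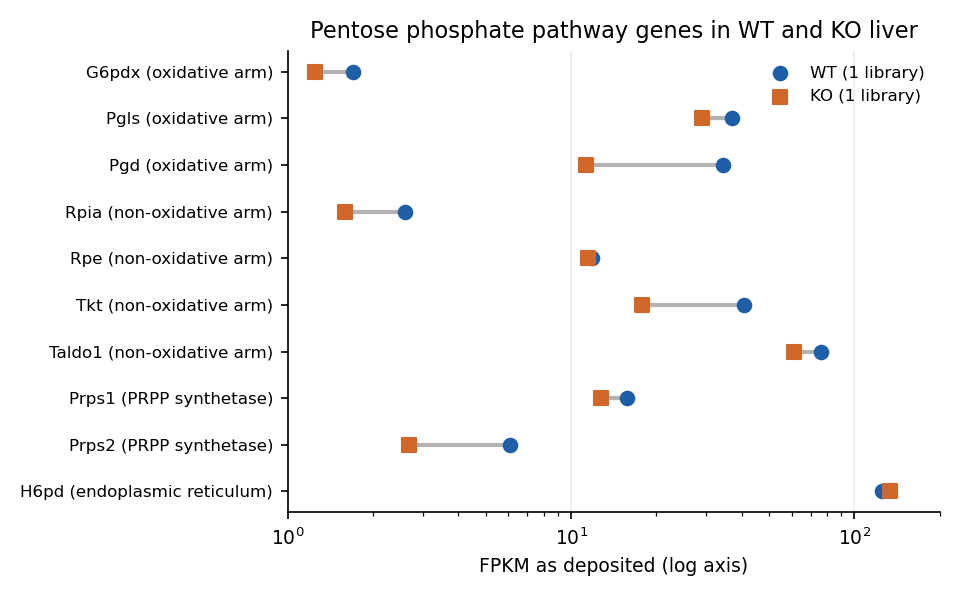
FPKM of the 10 genes (log axis) in the WT library (blue circles) and the KO library (orange squares), 1 library each, with a grey line joining the 2 values of a gene. The gap is widest for Pgd, Tkt and Prps2, and H6pd alone has its KO value to the right of its WT value.

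**Figure D2:**
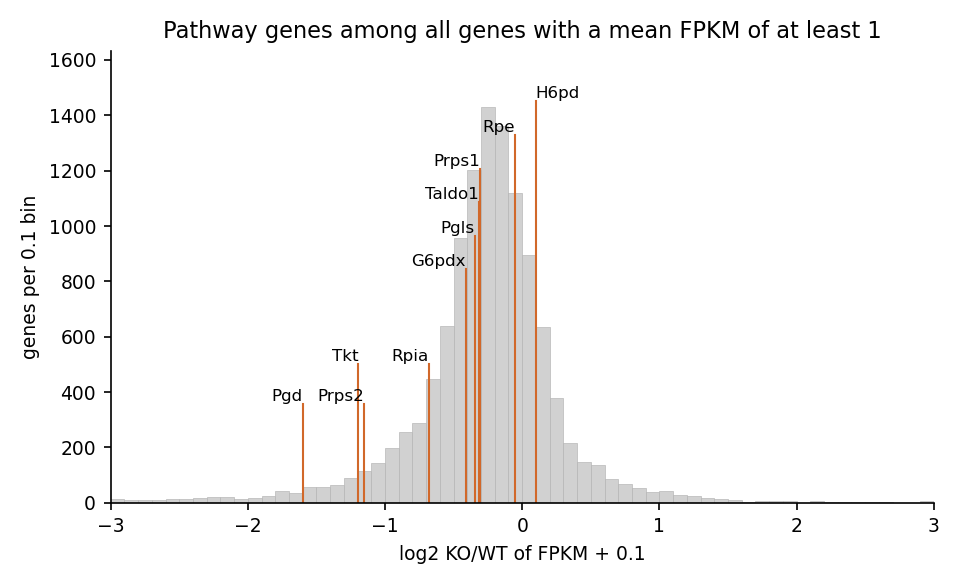
Number of genes whose mean FPKM was at least 1 per bin of log2 KO/WT (grey bars), with an orange line at each pathway gene, whose height only makes room for its name. Pgd, Tkt and Prps2 lie in the left tail, the others within the bulk, and 171 genes lie below and 8 above the range drawn.

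Beside these values, the levels of cell cycle genes and of many cell type markers differed between the libraries. All 10 genes of cycling cells were lower in KO, with a summed FPKM of 279 in WT and 21.6 in KO, among them Pcna at 66.8 and 13.0. Hepatocyte markers summed to 16616 FPKM in WT and 16305 in KO, with 3 of 10 lower and 2 higher. Of 37 expressed markers of other cell types, 20 were lower in KO and 1 higher, again beside 19.9% and 4.2% of all genes. Counts without the shift of all genes, given in brackets, stand beside 12.1% of all genes lower. The macrophage markers were lower in 7 of 9 (5 without the shift of all genes), with sums of 77.6 and 45.4, the stellate cell markers in 4 of 9 (3), with 117 and 70.2, and the endothelial markers in 5 of 9 (3), with 63.3 and 48.5. The cholangiocyte markers were lower in 1 of 4, with 33.7 and 29.4. The neutrophil markers were lower in 3 of 3 expressed (2), with sums of 14.8 and 7.89 and with Ly6g, Camp and Mpo at 0. Erythroid markers summed to 295 and 252, with 1 of 3 expressed higher and Gata1 at 0, and lymphocyte markers to 1.05 and 0.527. In bulk RNA fewer cells of a type and less RNA per cell cannot be told apart, and the part of cell make-up or of cycling in the ratios of the members was not tested.

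The levels of the members spanned 73.8-fold in WT and 107-fold in KO. In WT the order from the highest was H6pd, Taldo1, Tkt, Pgls, Pgd, Prps1, Rpe, Prps2, Rpia and G6pdx. In KO it was H6pd, Taldo1, Pgls, Tkt, Prps1, Rpe, Pgd, Prps2, Rpia and G6pdx. Pgd moved from the fifth place to the seventh, and Tkt and Pgls changed places. Neighbours in these orders cannot be called different from one another, because the spread between mice was not measured. Summed over the 10 genes, FPKM came to 352 for WT and 283 for KO, a ratio of 1.24. H6pd made up 35.6% of this sum in WT and 47.3% in KO, and without it the ratio was 1.52.

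The oxidative arm begins with G6pdx (X chromosome, NCBIM37, 71654822 to 71674533, minus strand; the coordinates of the other members are on the same build), the glucose 6-phosphate dehydrogenase that commits sugar to the pathway and is its main point of control. It stood at 1.6943 FPKM in WT against 1.2501 in KO. Its WT/KO ratio was 1.36, with a 95% counting interval from 1.11 to 1.65 that rests on an estimated 241 and 185 fragments. Such intervals cover counting error only and not the difference between mice. G6pdx was the lowest member in both libraries, with only 7.35% of expressed genes below it in WT and 8.51% in KO.

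The 6-phosphogluconolactonase gene Pgls (chromosome 8, 74116075 to 74124991, plus strand) stood at 36.8 FPKM in WT against 28.9 in KO. The ratio was 1.27 (counting interval 1.20 to 1.34), and 37.1% of all genes had a lower KO/WT ratio, so Pgls lay near the middle of the background.

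Pgd (chromosome 4, 148524100 to 148540880, minus strand) encodes 6-phosphogluconate dehydrogenase, the second enzyme of the pathway to release NADPH. It stood at 34.4 FPKM in WT against 11.3 in KO, the largest ratio of the 10 members at 3.05 (counting interval 2.87 to 3.24, from about 4104 and 1402 fragments). Only 3.74% of all genes had a lower KO/WT ratio. Within the oxidative arm the genes thus differed among themselves. Pgd stood at 0.935 of the level of Pgls in WT and at 0.391 in KO, and at 20.3 and 9.04 times the level of G6pdx. The summed FPKM of the arm was 73.0 in WT and 41.5 in KO, and 1 of its 3 genes, Pgd, was lower by more than 1.5-fold.

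In the non-oxidative arm 2 of 4 genes were lower by more than 1.5-fold, and the arm summed to 132 FPKM in WT and 92.2 in KO. Tkt (chromosome 14, 31361545 to 31387908, plus strand) encodes transketolase, which moves 2-carbon units between sugar phosphates. It stood at 40.9 FPKM in WT against 17.8 in KO, with a ratio of 2.30 (counting interval 2.20 to 2.40), and 6.07% of all genes had a lower KO/WT ratio.

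Taldo1 (chromosome 7, 148578098 to 148588867, plus strand) encodes transaldolase, which works in the same sequence of reactions with 3-carbon units. It was the most abundant gene of this arm, at 76.5 FPKM in WT against 61.4 in KO, for a ratio of 1.246 (counting interval 1.196 to 1.298). The partners of this arm were therefore further apart in KO, with Taldo1 at 1.87 times the level of Tkt in WT and at 3.45 times in KO.

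The isomerase and the epimerase that divide ribulose 5-phosphate between nucleotide synthesis and the exchange reactions also differed. Rpia (chromosome 6, 70715714 to 70742226, minus strand), the isomerase that makes ribose 5-phosphate, stood at 2.60 FPKM in WT against 1.59 in KO, for a ratio of 1.64. Its counting interval, 1.35 to 2.02, reaches below 1.5, since Rpia rested on about 256 and 162 fragments. Rpe (chromosome 1, 66747405 to 66766379, plus strand), the epimerase that makes xylulose 5-phosphate, stood at 11.9 FPKM in WT against 11.5 in KO. Its ratio of 1.04 had a counting interval from 0.969 to 1.11, which includes 1, and it became 0.879 once the shift of all genes was taken out. Rpe stood at 4.57 times the level of Rpia in WT and 7.23 times in KO.

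Prps1 and Prps2 encode PRPP synthetases, paralogues on the X chromosome that join ribose 5-phosphate to pyrophosphate from ATP. Prps1 (136991152 to 137010679, plus strand) stood at 15.7 FPKM in WT against 12.7 in KO, for a ratio of 1.24 (counting interval 1.15 to 1.33). Prps2 (163784254 to 163820681, minus strand) had 6.07 in WT against 2.68 in KO, for a ratio of 2.27 (counting interval 2.05 to 2.51). These intervals do not overlap, and Prps1 exceeded Prps2 by 2.59-fold in WT and by 4.75-fold in KO. For Prps2, 6.48% of all genes had a lower KO/WT ratio, and for Prps1 41.7%. In the printed sequences the window of Prps1 carries GC boxes and a CCAAT box, and that of Prps2 carries neither of them and 1 half-site.

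H6pd (chromosome 4, 149353584 to 149383132, minus strand) encodes the hexose 6-phosphate dehydrogenase of the endoplasmic reticulum lumen, which carries out the first reactions of the pathway there and keeps a separate store of NADPH. It was the most abundant member in both libraries, at 125 FPKM in WT and 134 in KO. The WT/KO ratio was 0.933 (counting interval 0.919 to 0.947), and 83.2% of all genes had a lower KO/WT ratio. H6pd alone of the 10 was above its WT level in the values as deposited. Its level was 3.63 times that of Pgd in WT and 11.9 times in KO.

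**Figure D3:**
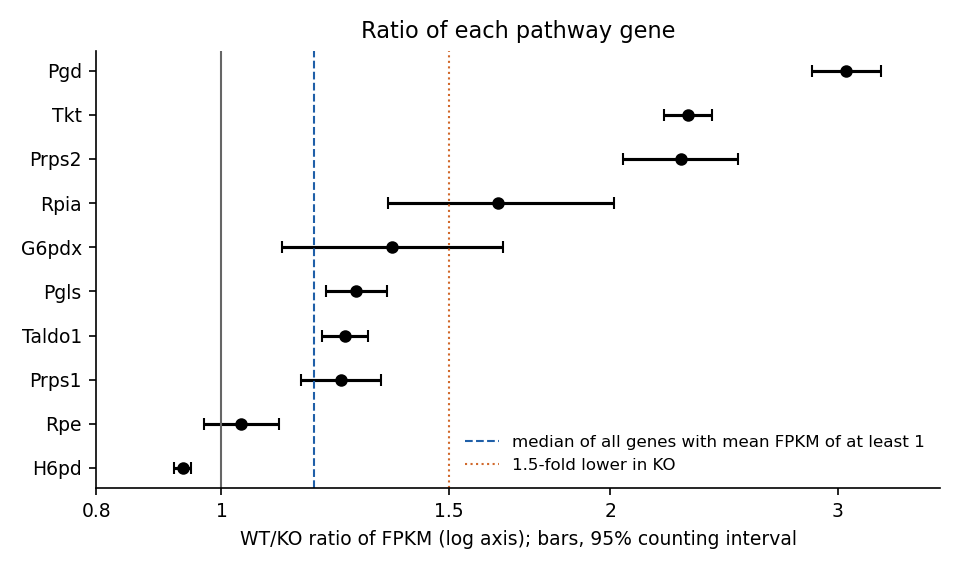
WT/KO ratio of FPKM of each gene (log axis) with its 95% counting interval, which covers counting error only. Pgd, Tkt and Prps2 have intervals wholly above 1.5 (dotted line), those of Rpia and G6pdx cross it, and the dashed line marks the median of all genes at 1.18.

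Some of these levels hang on how reads were assigned to loci, and the library kit does not mark strand. G6pdx shares its locus with Ikbkg, an NF-κB pathway gene on the opposite strand, and 418 of its 3080 exonic bases (13.6%) overlap exons of that gene. Ikbkg was at 34.7 FPKM in WT and 33.6 in KO, 20.5 and 26.9 times the level of G6pdx, so a small share of misassigned fragments would weigh on G6pdx. How many were misassigned was not tested. The last exon of Rpe overlaps exons of 1110028C15Rik on the opposite strand over 563 bases, 18.1% of its exonic bases, and that gene was at 2.36 FPKM in WT and 1.97 in KO. Pgls was deposited in 1 row together with Fam129c, which lies on the same strand and shares 776 exonic bases with it, so the value of Pgls is that of both genes. The deposited loci of Tkt and Prps2 also overlap annotated genes, AC154646.1 and Gm15239, and that of Rpe overlaps Gm15789 as well. For these the shared exonic bases were not counted.

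**Figure D4:**
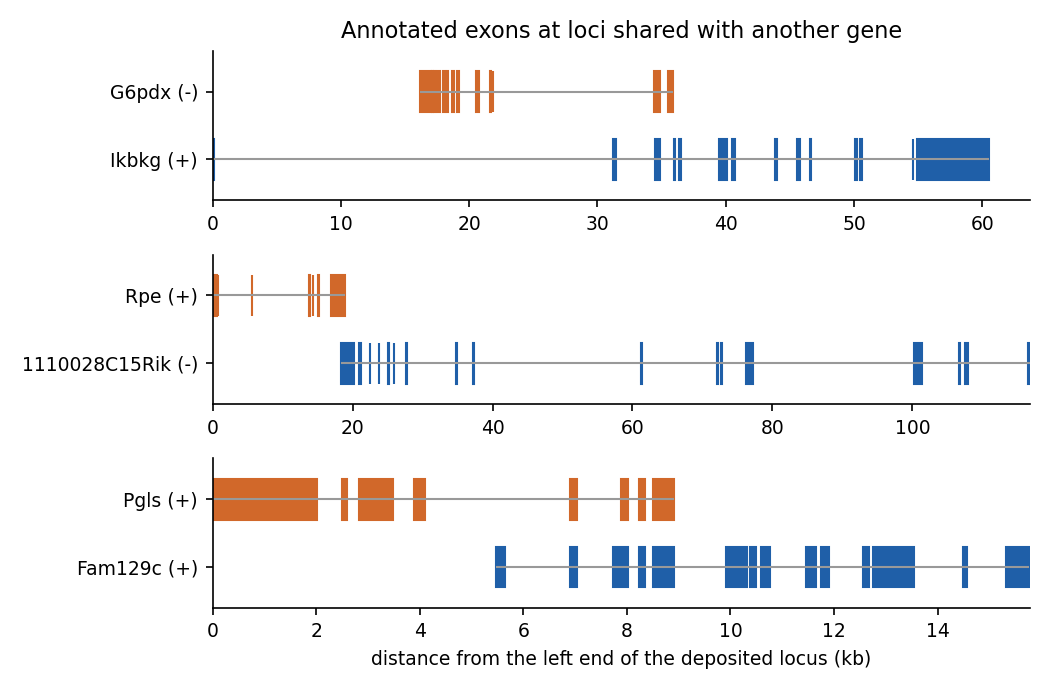
Exons annotated in GENCODE vM1 of G6pdx, Rpe and Pgls (orange) and of a gene that overlaps each (blue), with the strand after the name, by distance in kb from the left end of the deposited locus. The overlap covers 418, 563 and 776 exonic bases.

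Copies elsewhere in NCBIM37, at least 80% identical over at least 500 bases, were found for 5 of the 10 transcripts. G6pd2 on chromosome 5, an intronless copy of G6pdx with 93.2% identity, was listed at 0 in both libraries. Prps1l3 on chromosome 12, 89.8% identical to Prps1 over 1938 bases, was deposited in a joint row with Mipol1 at 16.7 FPKM in WT and 15.7 in KO, which is 1.06 and 1.24 times the level of Prps1. Of the 100-base windows of Prps1, 19.1% matched this copy with at most 2 mismatches, so the split of reads between them is uncertain. The copy of Taldo1 at Gm9766 on chromosome 10 matched 14.0% of its windows, and the row of Gm9766 held 7.75 FPKM in WT and 5.42 in KO. The copies of Rpe within Frmd5 (0.0299 and 0.0775 FPKM) and of Prps2 within Mgat4a (0.197 and 0.0870 FPKM) lay in rows far below the levels of these members. For Pgd, Tkt, Rpia, Pgls and H6pd no such copy of at least 500 bases was found.

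The counts of the neighbouring lists that follow stand beside 19.9% of all genes lower in KO and 4.2% higher, or 12.1% lower without the shift of all genes. Among 11 further genes of pentose and ribose metabolism, 7 reached a mean FPKM of 1, and 1 of these was lower and none higher by more than 1.5-fold. Their median log2 KO/WT was -0.12, and 0.11 once the shift of all genes was taken out. The lower gene was the phosphopentomutase on chromosome 5, which moves the phosphate of ribose and which the table and GENCODE vM1 call Pgm1 (Pgm2 in RefSeq), with 3.02 FPKM in WT and 1.52 in KO. Prpsap1, a protein associated with PRPP synthetase, had 32.8 and 30.8. The other associated protein, Prpsap2, named after its values were seen, gave 5.20 and 4.68, and Shpk, the sedoheptulose kinase, gave 10.2 and 10.7. The transketolase-like genes Tktl1 and Tktl2, named after their values were seen, were listed at 0 in both libraries, like G6pd2.

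Of the genes that supply or use glucose 6-phosphate, 1 of the 10 expressed was lower in KO and 1 was higher, with a median log2 of -0.13, which became 0.11 without the shift of all genes. The phosphoglucomutase on chromosome 4, called Pgm2 in the table and Pgm1 in RefSeq and named after its values were seen, had 59.5 FPKM in WT and 60.4 in KO. G6pc, the phosphatase that frees glucose, was higher, at 55.3 in WT and 109 in KO. Gpi1 (in a joint row with Gm12762), which leads glucose 6-phosphate into glycolysis, had 89.6 and 60.3, just inside the 1.5-fold limit, and Fbp1 of gluconeogenesis had 626 and 635.

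Of 4 expressed genes linked to NADPH at the endoplasmic reticulum, 1 was higher in KO and none lower, with a median log2 of 0.30. This list does not separate the lumen, where H6pd acts, from the cytosolic side. Without the shift of all genes 2 of the 4 were higher. The share of all genes higher after this step, which raises every KO value, was not counted. Por, the reductase that feeds electrons from NADPH to cytochromes P450, had 181 FPKM in WT and 272 in KO, just past the 1.5-fold limit. Hsd11b1, which uses the NADPH of H6pd to regenerate glucocorticoid, had 89.1 and 121. Slc37a4, which carries glucose 6-phosphate into the endoplasmic reticulum, had 63.4 and 71.0, and Cyb5r4 had 10.6 and 10.2.

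Among the other enzymes that make NADPH or its precursor, 5 of 10 were lower in KO (4 without the shift of all genes) and 2 higher, with a median log2 of -0.62. Aldh1l1 of folate metabolism had 516 FPKM in WT and 168 in KO, and the mitochondrial folate enzyme Mthfd2 had 3.99 and 0.616. Further genes, named after their values were seen, were also lower: the malic enzyme Me1 at 80.3 and 42.1, the mitochondrial isocitrate dehydrogenase Idh2 at 89.6 and 37.8, and Mthfd1 at 63.4 and 38.5. Idh1, the cytosolic isocitrate dehydrogenase, had 191 and 132, and the NAD kinase Nadk had 77.3 and 71.2. The higher genes were the mitochondrial transhydrogenase Nnt, at 10.6 in WT and 32.2 in KO, and Me3, at 0.993 and 2.69, which was named after its values were seen.

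The reductases of fatty acid and sterol synthesis, which spend NADPH, were lower in KO in 8 of 12 genes, with and without the shift of all genes, with a median log2 of -1.60. Tecr, at 113 FPKM in WT and 101 in KO, and Hsd17b12, at 92.9 and 81.7, both of very long chain fatty acid elongation, were within 1.5-fold.

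Of 16 expressed antioxidant and Nrf2 target genes, which include the enzymes that spend NADPH on glutathione and thioredoxin, 3 were lower in KO (1 without the shift of all genes) and none higher, shares no higher than those of all genes, with a median log2 of -0.38. The 3 were Nqo1, a quinone reductase, at 13.1 FPKM in WT and 2.77 in KO, and Gsr at 63.7 and 40.4 and Gclc at 92.9 and 55.1, the last pair named after their values were seen. Gpx1 had 986 and 990, Prdx1 856 and 710, Cat 775 and 569, and Txnrd3 1.22 and 1.39.

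Downstream of Prps1 and Prps2, 4 of 7 expressed enzymes that consume PRPP were lower in KO (2 without the shift of all genes), and the median log2 was -0.68. Qprt of NAD synthesis had 82.8 FPKM in WT and 51.5 in KO, and Nampt, of the NAD salvage route, had 12.0 and 5.73. Ppat, the first step of purine synthesis, had 11.2 and 5.95, and Umps of pyrimidine synthesis had 12.9 and 7.51, both named after their values were seen. The salvage enzymes Hprt, at 53.8 and 52.6, and Naprt, at 47.0 and 45.3, were within 1.5-fold, and Aprt was not analysed here. Of 10 purine genes that follow PRPP, 5 were lower by more than 1.5-fold (1 without the shift of all genes, a share close to that of all genes), with a median log2 of -0.56. The most abundant was Paics at 150 and 98.0, and the lowest ratio was that of Adssl1 at 10.5 and 4.79. Impdh2 (45.2 and 38.0, in a joint row with Qars and Qrich1) and Adss (27.9 and 20.2) were within the limit, and Pfas, Impdh1 and Gmps, named after their values were seen, exceeded it narrowly, with ratios of 1.57, 1.62 and 1.52.

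Among 12 transcription factors and partners known to act on these pathways, 4 were lower in KO (2 without the shift of all genes) and none higher, with a median log2 of -0.40. E2f1, which drives entry into S phase, had 6.99 FPKM in WT and 1.03 in KO. Srebf1, the regulator of fatty acid synthesis, had 46.6 and 9.21, Mlxipl, the carbohydrate-responsive factor, 58.0 and 36.7, and Nfe2l2, which encodes Nrf2, 29.9 and 19.9, all of them named after their values were seen. Nfe2l2, with a ratio of 1.505, exceeded the limit narrowly. The 2 that stayed lower without the shift of all genes were E2f1 and Srebf1. Atf4 had 57.5 and 45.6. Mafg (196 and 162) and Mlx (67.1 and 63.7), each in a joint row with other genes, were within 1.5-fold.

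**Figure D5:**
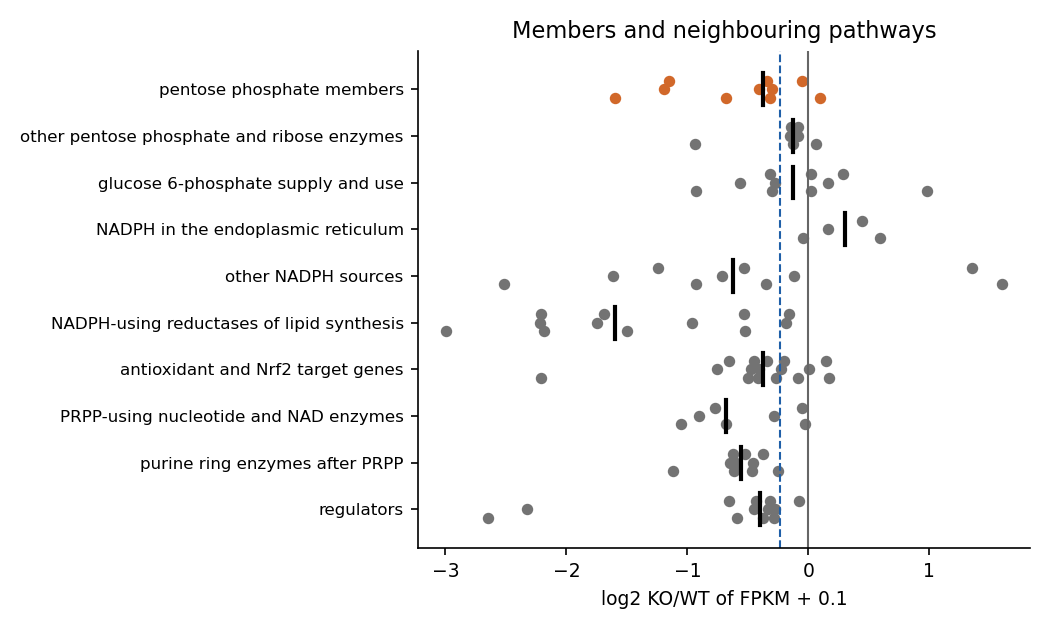
Log2 KO/WT of each gene whose mean FPKM was at least 1 (points, spread vertically only for legibility) in the pathway (orange) and in the neighbouring lists (grey), with the median of each list as a black bar and the median of all genes as a dashed line at -0.24. The members' median is -0.38, the reductases of lipid synthesis have the lowest at -1.60 and the endoplasmic reticulum genes the highest at 0.30.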

How the data were processed

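Total liver RNA was made into TruSeq libraries and sequenced on an Illumina instrument with 100-base reads, paired-end by the labels and single-end by the study's methods. The authors aligned reads to NCBI37 (mm9) with TopHat 2.0.0 and estimated the deposited FPKM per locus with Cufflinks 1.3.0 and Cuffdiff. Only these FPKM were analysed, as deposited. The columns of the authors' own comparison (log2 fold change, test statistic, p-value, q-value) were not used. Of 38016 loci, 2302 had no symbol, 850 named several symbols, each of which got the joint value, and 21 marked HIDATA, a status for loci with too many fragments, were left out. Rows of a symbol were summed.

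The analysis ran in Python 3.11.15 with pandas 2.3.3, numpy 2.4.6, scipy 1.17.1 and matplotlib 3.10.9. For log2 ratios 0.1 FPKM was added to each value, a pseudocount that makes differences of low genes look smaller, and plain ratios had none. Read counts were not used here. Depth was estimated from the low values of single-exon genes, of which 913 (WT) and 872 (KO) were above 0. The value at which they piled up most, within a preset range, was taken as 1 fragment on 1 kb. It was 0.0186 FPKM in WT and 0.0179 in KO. Fragments of a member were its FPKM times the length of its longest coding transcript over this unit, and exact (Clopper-Pearson) 95% intervals of ratios came from them. The steps were tested on simulated data. Copies were searched with blastn 2.17.0, and genes were located in GENCODE vM1 on NCBIM37.

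The members, lists and tests were chosen with earlier results of these data known. Symbols were matched to the older names of the table, and the exchange of Pgm1 and Pgm2 between it and RefSeq was corrected after their values were seen. Genes named were the members, Ppard and, from each pathway list, the 3 with the highest mean FPKM and those with the largest and smallest KO/WT ratio. The results of some genes that this rule names are left out. Others are marked in the text, apart from markers and from genes that share a locus or sequence with a member. Alternatives covered the pseudocount, the scaling, the fold, the filter on low FPKM, and joint and repeated rows.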

Additional observations from a re-analysis of the deposited data

How the results depend on the processing

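The count of members lower in KO was 4 as reported, and 3 to 6 under the alternatives, and no member was higher by more than the threshold under any of them. The 3 came from a threshold of 2-fold, from equal upper quartiles and from centring on the median of all genes, and Rpia was the member lost in each. Beside them stand 8.69% of all genes lower at 2-fold and 12.1% lower after centring. The share of all genes lower with equal upper quartiles was not counted, nor were the shares higher under either scaling. The 6 came from a threshold below 1.5-fold. The share of all genes lower in KO at that threshold was not counted. It cannot be less than the 19.9% at 1.5-fold, so the 6 cannot be set against that share. The median log2 KO/WT of the members was -0.38 and lay between -0.41 and -0.32 under the other alternatives, but was -0.11 with equal upper quartiles and -0.15 after centring, since both raise every KO value. Of 69 values of single members under the alternatives, 19 lay outside the counting interval of the reported value, 18 of them under these 2 scalings, and the other was Prps2 at -0.94 with a pseudocount of 1 FPKM. The sign turned for Rpe alone, at 0.22 and 0.18 under these scalings. With joint loci left out Pgls had no value. No paired analysis was possible because each genotype has 1 library, and for the same reason no library could be left out. The depth limits G6pdx and Rpia most. Differences between mice cannot be told apart from the genotype.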
